A study of Drosophila melanogaster with 2 samples.

Results

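The regions described here are the ChIP-seq peaks of the tagged CG34367 protein that lie in first introns of genes, away from any transcription start site (TSS). They were taken from the joint list of 6270 peaks that passed the authors' threshold on the irreproducible discovery rate, a measure of how well peak ranks repeat between replicates. A peak was included if its deposited summit lay more than 500 bp from any TSS of a protein-coding or ncRNA gene, outside all exons of protein-coding genes, and inside the first intron of at least 1 protein-coding transcript. This position rule, which uses no signal values, found 1751 peaks, 27.9% of the joint list. The chromatin came from whole Drosophila melanogaster pupae aged 24 hours, of a transgenic line that stably makes CG34367 with GFP at its C-terminus, and was precipitated with an antibody against GFP. There was 1 group of 2 libraries, biological replicates 1 and 2, with 30000 deposited peaks each. How many animals went into a library, their sex and the read depth are unknown here. No wild-type, untagged or mutant group was analysed, so the comparisons are between classes of sequence, between genes and between the libraries.

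CG34367 belongs to the homeodomain proteins, transcription factors that contact short AT-rich sequences with the common core TAAT. The first intron is the intron closest to a gene's start and in flies is often the longest, and it commonly holds enhancers, the stretches of DNA that transcription factors bind to set where and when a gene is transcribed. Pupae at this stage are in metamorphosis, when the steroid hormone ecdysone drives the remodelling of larval tissues and the growth of adult ones. A ChIP-seq summit marks the position of highest coverage in a peak, and it does not show whether the protein contacts the DNA there directly.

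The sequence at the summits shows what kind of DNA the strongest of these peaks cover. The windows below hold 50 bp on either side of the summit (101 bp in all) on the forward strand of build dm6, 5′ to 3′, from the RefSeq assembly. They are the 6 strongest first-intron peaks that also overlapped the strongest peaks of both libraries, on the arms for which sequence is shown. None of these 6 windows holds TAATTA, the palindromic homeodomain core, and their GC contents lay between 28.7% and 37.6%.
Lk6, chr3R:11761010-11761110: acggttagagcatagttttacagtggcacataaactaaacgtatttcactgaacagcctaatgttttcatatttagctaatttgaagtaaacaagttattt
ush, chr2L:481036-481136: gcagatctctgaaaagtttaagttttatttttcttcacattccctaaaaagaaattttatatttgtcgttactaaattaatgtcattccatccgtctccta
CG9663, chr2L:3302148-3302248: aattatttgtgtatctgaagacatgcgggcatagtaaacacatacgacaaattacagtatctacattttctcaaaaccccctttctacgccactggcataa
CG32772, chrX:4910357-4910457: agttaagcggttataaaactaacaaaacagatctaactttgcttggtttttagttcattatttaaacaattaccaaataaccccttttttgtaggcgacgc
jumu, chr3R:10351995-10352095: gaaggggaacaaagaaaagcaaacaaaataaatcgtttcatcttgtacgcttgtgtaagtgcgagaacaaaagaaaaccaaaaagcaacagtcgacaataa
Reph, chr2L:3804709-3804809: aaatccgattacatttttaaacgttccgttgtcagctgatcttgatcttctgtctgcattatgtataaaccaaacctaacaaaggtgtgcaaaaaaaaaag

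The next 6 windows are the strongest peaks, chosen by the same rule, that do hold TAATTA, which stands in capitals. Each window holds it once. Eip78C and Hr4 encode nuclear receptors of the ecdysone cascade, Pak3 a p21-activated kinase, NFAT a transcription factor and norpA the phospholipase C of phototransduction.
CG42327, chr3R:11656752-11656852: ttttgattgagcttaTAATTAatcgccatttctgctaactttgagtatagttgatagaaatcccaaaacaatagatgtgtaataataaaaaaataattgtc
Eip78C, chr3L:21253848-21253948: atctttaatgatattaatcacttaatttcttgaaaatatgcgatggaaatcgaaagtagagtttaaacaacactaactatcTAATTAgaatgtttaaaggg
Pak3, chr3R:16449366-16449466: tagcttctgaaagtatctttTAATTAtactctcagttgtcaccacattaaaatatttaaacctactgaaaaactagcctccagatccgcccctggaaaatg
NFAT, chrX:13640465-13640565: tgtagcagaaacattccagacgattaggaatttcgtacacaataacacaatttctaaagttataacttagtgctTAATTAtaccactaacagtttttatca
Hr4, chrX:1947696-1947796: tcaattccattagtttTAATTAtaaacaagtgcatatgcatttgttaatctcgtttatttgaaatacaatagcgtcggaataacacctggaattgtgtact
norpA, chrX:4324948-4325048: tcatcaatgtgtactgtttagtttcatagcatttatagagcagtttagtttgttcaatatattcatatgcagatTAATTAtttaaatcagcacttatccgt

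The peak in Lk6, the gene of a kinase that acts on the translation factor eIF4E, had the highest deposited signal of all first-intron peaks, 3154, where the median of the 1751 was 249. It lay in a first intron of 6991 bp, 3397 bp from the TSS of that transcript, and it ranked 4 in replicate 1 and 14 in replicate 2. The protein-coding TSS nearest to the summit was another of Lk6, 981 bp away. The peak in ush, which encodes a zinc finger cofactor of GATA factors, had a signal of 2810 and ranks of 6 and 29. The TSS closest to it was not that of ush but of cbt, 1398 bp away. In CG9663 a single deposited interval in an intron of 1292 bp held 2 joint summits, with signals of 2644 and 1745. The peak in jumu, a forkhead factor gene, followed CG32772 (signal 2466) with a signal of 2453, ranking 17 in replicate 1 and 46 in replicate 2. Reph ranked 28 in both libraries. Further down stood a peak shared by the first introns of the HMG-box genes HmgD and HmgZ (signal 2000), one in dpp, the gene of the main BMP ligand (1800, ranks 47 and 87), one in LRP1, a lipoprotein receptor gene (1769), and one in Hr4, a nuclear receptor gene of the ecdysone cascade (1714, ranks 48 and 135). CG12769 (2175), CG3726 (1989), CG4496 (1902) and CG42327 (1729) complete the 15 strongest peaks found in both libraries, with CG9663 counted for both of its summits. Each of the 15 stood among the strongest 135 peaks of both libraries.

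The distance to the TSS of the transcript whose first intron held the summit had a median of 4063 bp over the 1751, with a range of 503 to 93311 bp. The introns had a median length of 10840 bp. For 1522 summits (86.9%) the nearest protein-coding TSS belonged to the gene whose intron held them. Alternative transcripts blur the class: 684 summits (39.1%) were also in a later intron of some transcript, 460 (26.3%) were in first introns of transcripts with different TSS, and 55 were in first introns of more than 1 gene. The 83 members that lay 500 to 600 bp from a TSS had a median signal of 249 and a density of 12.8 summits per 100 kb. The 84 first-intron summits 400 to 500 bp from a TSS, which the rule leaves out, had a median signal of 238 and 12.5 summits per 100 kb. Density was even across the limit.

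The first comparison asked whether first introns held more summits than other sequence of the same kind. Eligible sequence met the same limits as the summits, over 500 bp from a TSS and outside protein-coding exons. First introns held 7.87 summits per 100 kb (95% exact Poisson interval 7.51 to 8.25, over 22.2 Mb). Later introns, which are introns of protein-coding transcripts that are first in none, held 3.14 (2.94 to 3.35, over 29.8 Mb). Intergenic sequence held 3.19 (3.01 to 3.37, over 38.6 Mb). The ratio of first to later introns was 2.51 (2.32 to 2.72, exact conditional binomial p = 5.9e-121), and that of first introns to intergenic sequence was 2.47 (2.29 to 2.66, exact conditional binomial p = 1.1e-132). These tests treat summits as independent, and peaks are not replicates.

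Both libraries showed the same order when each was taken singly, with its 6270 strongest peaks by signal. First introns held 7.55 summits per 100 kb in replicate 1 and 8.07 in replicate 2. Later introns held 3.09 and 3.14, and intergenic sequence 3.29 and 3.15. The means were 7.81 ± 0.362 for first introns, 3.11 ± 0.0333 for later introns and 3.22 ± 0.0952 for intergenic sequence (SD, n = 2 libraries). First introns lay above both other classes in each library, while later introns (at most 3.14) and intergenic sequence (at least 3.15) lay next to each other. With 2 libraries a permutation test over libraries cannot reach the threshold.

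Later introns were also counted by the lowest number they have over all transcripts. Introns numbered 2 held 4.63 summits per 100 kb (588 summits), those numbered 3 held 3.07 (150), those numbered 4 held 3.29 (94), and those from 5 on 1.10 (102). Introns 3 and 4 did not differ beyond their intervals, and of the later introns only those numbered 2 had an interval above that of intergenic sequence.

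**Figure D1:**
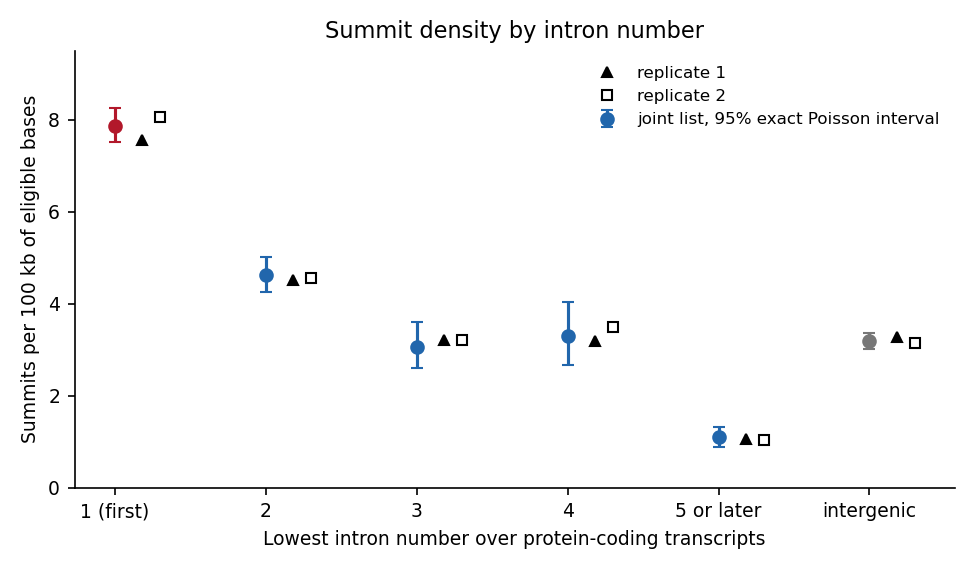
Summits per 100 kb of eligible bases (vertical axis) by the lowest number an intron has over protein-coding transcripts, with intergenic sequence at the right. Filled circles are the joint list with 95% exact Poisson intervals, triangles and squares the strongest peaks of replicates 1 and 2; first introns, at 7.87, stand above introns numbered 2, at 4.63, and those with higher numbers.

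First introns were denser than later introns and intergenic sequence at each of 6 distances from the nearest TSS. Between 0.5 and 1 kb from a TSS, first introns held 11.9 summits per 100 kb, later introns 5.43 and intergenic sequence 5.96. Between 2 and 5 kb the values were 7.68 in first introns, 3.69 in later introns and 3.79 in intergenic sequence. Over 20 kb from any TSS they were 3.01 in first introns, 1.31 in later introns and 0.454 in intergenic sequence. Each class thinned out with distance, and the 95% intervals of first introns overlapped neither of the others in any distance class. Density was also lower farther along the intron. With each first intron divided into 4 equal stretches from its 5′ end, these held 9.92, 8.46, 7.54 and 5.24 summits per 100 kb. By length, first introns of up to 10 kb held between 9.17 and 9.40 per 100 kb in 3 length classes, those of 10 to 20 kb 8.25, those of 20 to 50 kb 6.62 and longer ones 4.92.

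**Figure D2:**
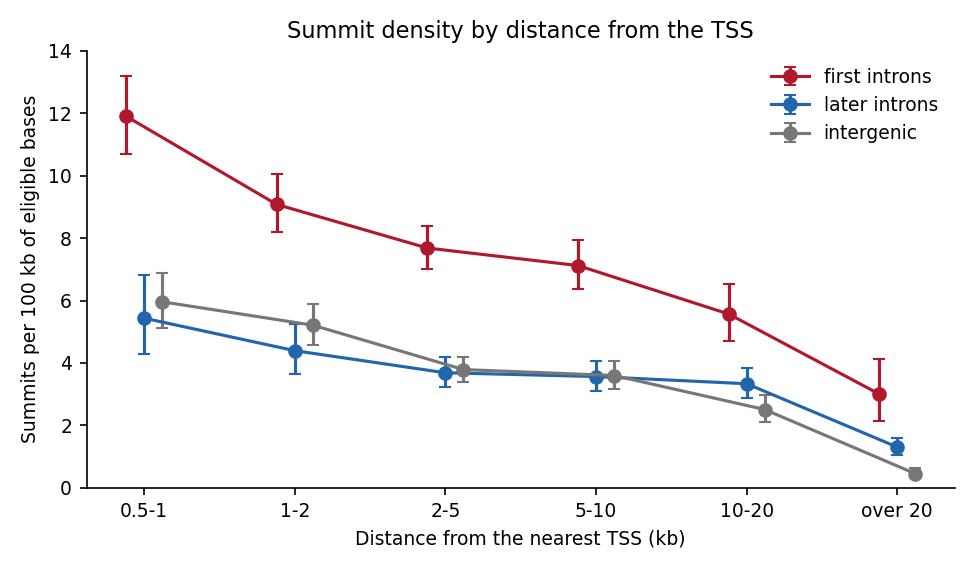
Summits per 100 kb of eligible bases (vertical axis) by distance from the nearest TSS in kb (horizontal axis) for first introns, later introns and intergenic sequence, with 95% exact Poisson intervals. First introns run between 11.9 and 3.01, above both other classes in each distance class.

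First and later introns were also compared within the same genes, a comparison added after the data were seen, with genes whose bodies overlap taken as 1 stretch. In 959 stretches with both kinds of intron and at least 1 intronic summit, 1657 of 2572 intronic summits were in first introns, where the share of bases gave 1454 (ratio of observed to base-derived 1.14). The Mantel-Haenszel rate ratio of first to later introns was 1.80 (exact test over stretches, p = 7.6e-27), beside 2.51 genome-wide. Replicates 1 and 2 taken singly gave ratios of 1.67 and 1.84.

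Over the chromosome arms, first introns held between 7.38 summits per 100 kb on 2L and 8.37 on X, with 7.79 on 3R, 7.80 on 2R and 8.18 on 3L in between. The small chromosome 4, which is largely heterochromatic, held 1 first-intron summit, 0.805 per 100 kb. The X carried 21.8% of first-intron summits, 20.5% of eligible first-intron bases and 19.6% of all joint summits. Among later introns the X carried 26.6% of summits and 16.97% of bases, so its share of summits was lower in first introns than in later ones (odds ratio 0.77, Fisher's exact test, adjusted p = 0.032 over 5 shares). Among intergenic summits the X share was 12.3%, below that of first introns (odds ratio 1.98, Fisher's exact test, adjusted p = 8.7e-11), with 15.7% of intergenic bases. Later introns held 4.91 summits per 100 kb on X and between 2.59 and 3.57 on the other large arms. The call against later introns was lost in the stronger 3135 joint peaks (odds ratio 0.83, adjusted exact p = 0.47) and with a TSS limit of 1000 bp (0.79, adjusted exact p = 0.11).

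The next comparison asked how far the libraries agreed on these peaks. Of the 1751 peaks, 1350 (77.1%) overlapped the 6270 strongest peaks of both libraries, against 74.7% of all joint peaks. Another 167 did so in replicate 1 only, 224 in replicate 2 only and 10 in neither. In later introns the share in both was 74.3% (odds ratio 1.16, Fisher's exact test, adjusted p = 0.13), and in intergenic sequence 76.8% (1.02, Fisher's exact test, adjusted p = 0.86). Of first-intron peaks, 25.6% were among the 1567 strongest of the joint list, against 21.7% of later-intron peaks (odds ratio 1.24 with interval 1.02 to 1.51, adjusted p = 0.066 by Fisher's exact test) and 22.5% of intergenic peaks (1.19, adjusted exact p = 0.085). The median signal was 249 in first introns, 233 in later introns and 249 in intergenic sequence.

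The full lists of both libraries held 1701 of the first-intron peaks. Across these, log2 signal in the libraries gave a Spearman's rho of 0.70 and a Pearson's r of 0.75, a description across peaks that share libraries and base composition. The log2 signal ratio of replicate 2 over replicate 1 was centred on its median over all joint peaks found in both. It had an SD of 0.68, and 13.4% of the peaks were over 2-fold away from 0 on this scale. The share was 14.8% over all joint peaks in both lists, 13.2% in later introns and 10.8% in intergenic sequence. Peaks with the largest excess in replicate 2 were in EcR, the gene of the ecdysone receptor (centred log2 ratio 2.67, ranks 28115 in replicate 1 and 2781 in replicate 2), in Myo10A, a myosin gene (2.58), and in Tet, the fly gene of the TET dioxygenase family (2.54). Those with the largest excess in replicate 1 were in CG32767 (-2.18, ranks 502 and 4844), COX7AL2 (-2.13) and Mef2, the gene of a muscle transcription factor (-2.10). A second peak in Mef2, with a signal of 818, had a ratio of -0.26 and ranked 453 in replicate 1 and 598 in replicate 2. When first-intron peaks were divided into 5 classes by GC content, the median ratio was 0.39 in the lowest (mean GC content 22.9%) and between -0.12 and -0.02 in the other 4. The part of base composition in the differences between libraries was not tested further.

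First-intron summits were AT-rich against the DNA around them. The window at the summit had a mean GC content of 32.4% (SD 7.98 over peaks), against 43.6% in a window 400 bp away. In later introns the values were 31.8% and 44.5%, in intergenic sequence 31.2% and 45.8%, while eligible first introns as a whole had 40.0%. The summit was a trough between shoulders that were richer in GC than the intron at large. In windows of 25 bp on either side, the mean at first-intron summits was 32.0% GC. To the left and right it was 43.4% and 43.3% at a distance of 400 bp, and 41.0% and 40.5% at 1000 bp. Summit windows below the joint list's median GC content made up 48.9% of first-intron windows, against 52.8% of later-intron windows (odds ratio 0.86, Fisher's exact test, adjusted p = 0.10) and 56.9% of intergenic windows (0.73, Fisher's exact test, adjusted p = 4.7e-05). Of all joint windows 49.2% lay below that median. Repeat-masked bases held 25.3% of first-intron summits, against 25.9% of later-intron summits (0.97, Fisher's exact test, adjusted p = 0.75), and made up 21.05% of eligible first-intron bases. Of all joint summits 24.9% lay on repeat-masked bases.

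The homeodomain core TAATTA, searched on both strands, lay within 50 bp of 166 of the 1751 summits, 9.48% (95% exact binomial interval 8.15 to 10.9%), against 9.33% of all joint windows. In the windows 400 bp away the share was 6.40%, a ratio of 1.48 (exact McNemar test, adjusted p = 0.0026 over 12 sequences). In later introns 8.67% of summit windows and 4.28% of flanks held it, and the contrast was not compared between the classes. The call was lost where base composition was held alike, a comparison added after the data were seen. In the 338 pairs whose summit and flank differed by at most 5 percentage points of GC, 7.40% of summits and 6.21% of flanks held TAATTA (ratio 1.19, exact McNemar test, adjusted p = 1). This set of pairs is smaller than the 1751, so a call can also be lost through fewer pairs. Within first-intron peaks the share ran with base composition, from 17.2% in the lowest of the 5 GC classes to 1.34% in the highest. The first-intron share did not pass against later introns (odds ratio 1.10 with interval 0.83 to 1.48, adjusted p = 0.65 by Fisher's exact test). TAATTG, the neighbouring core, lay in 11.5% of first-intron windows, against 9.19% of their flanks (ratio 1.25, exact McNemar test, adjusted p = 0.057) and 10.5% of later-intron windows (odds ratio 1.11, Fisher's exact test, adjusted p = 0.65).

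**Figure D3:**
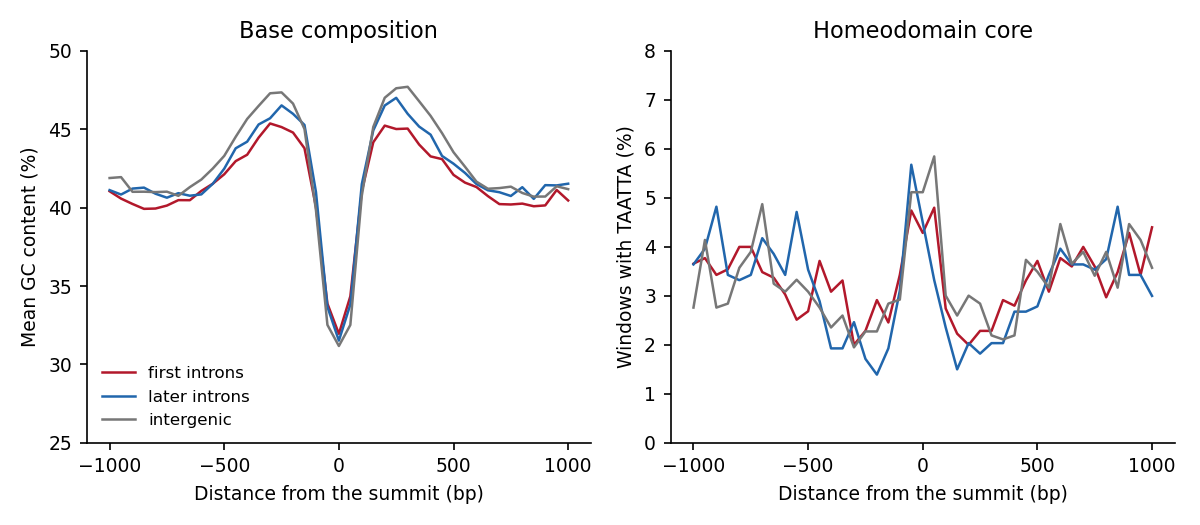
Mean GC content (left, in percent) and share of 51 bp windows that hold TAATTA (right, in percent) by distance from the summit in bp, for first-intron, later-intron and intergenic peaks. In first introns GC content falls to 32.0% at the summit, and TAATTA lies in 4.28% of summit windows, 3.08% (left) and 2.80% (right) of windows 400 bp away and 3.66% (left) and 4.40% (right) of those 1000 bp away.

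Of the other 10 sequences searched, 4 differed between summits and flanks in first introns after adjustment. TAAACA, part of the forkhead site, lay in 14.9% of windows, against 9.94% of flanks (ratio 1.50, exact McNemar test, adjusted p = 4.9e-05). In later introns it lay in 11.1% of windows and 6.96% of flanks. The E-box CAGCTG lay in 2.51%, against 5.20% of flanks (0.484, adjusted exact p = 0.0002), the GAGA sequence GAGAGAG in 1.60%, against 3.71% (0.431, adjusted exact p = 0.00033), and the CA repeat CACACACA in 1.26%, against 5.20% (0.242, adjusted exact p = 1.9e-11). The values of these 4 at like base composition are not reported here. TAATCC, the GATA sequence AGATAAG, the E-boxes CAGGTG and CACGTG, the nuclear receptor half-site AGGTCA and the AP-1 sequence TGACTCA did not pass.

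Against later introns, 2 of the 12 sequences passed. CAGGTG, the E-box of Snail and other factors, lay in 2.23% of first-intron windows (39 windows) and 0.642% of later-intron windows (6), an odds ratio of 3.52 (1.47 to 10.2, adjusted exact p = 0.018). Of all joint windows 1.59% held it. In the flanks of first-intron summits 2.57% held it, a difference from the summits that did not pass (exact McNemar test, adjusted p = 0.67). Flanks of later-intron summits held CAGGTG in 2.46%. Of these shares, that at later-intron summits was the lowest. TAAACA lay in 14.9% of first-intron windows and 11.1% of later-intron windows (odds ratio 1.40, 1.09 to 1.80, Fisher's exact test, adjusted p = 0.039). The share in all joint windows was 14.1%, near that in first introns. The TAAACA odds ratio was 1.34 in replicate 1 alone (adjusted exact p = 0.070) and 1.31 in replicate 2 alone (adjusted exact p = 0.098), so the call was lost in each library. It was also lost with a TSS limit of 1000 bp (1.25, adjusted exact p = 0.29) and with first introns of every transcript (1.39, adjusted exact p = 0.15). CAGGTG passed in each library alone, with 2.62% in first and 0.978% in later introns of replicate 1 and 2.01% and 0.642% in replicate 2. It did not pass in windows of 100 bp on either side (odds ratio 1.84, adjusted exact p = 0.053), in the stronger 3135 peaks (2.91, adjusted exact p = 0.39) or with first introns of every transcript (2.80, adjusted exact p = 0.15). Among all 2080 sequences of 6 bases, 1 passed (0.0481%), ATGTCG, with 2.80% of first-intron and 0.535% of later-intron windows (Fisher's exact test, adjusted p = 0.039), and it passed under none of the 5 alternatives. Of the 2080, 144 had an unadjusted p under 0.05.

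The 1751 summits fell in 861 genes, 14.5% of the 5941 protein-coding genes with eligible first-intron bases. Replicate 1 taken singly gave 850 genes and replicate 2 gave 880. Of the 861, 480 held a single summit and 160 held 2, while 78 held 5 or more and together accounted for 532 pairs of a summit and its gene. Longer first introns were hit more often: the share of genes with a summit was 2.11% for genes with up to 1 kb of eligible first intron, 22.2% at 2 to 5 kb and 65.7% over 20 kb.

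Among the genes with most, sbb, which encodes a corepressor, held 18 summits in 54.8 kb of first intron, with 19 in replicate 1 and 21 in replicate 2. Its signals ran from 143 to 958, and 9 of the 18 were among the 1567 strongest joint peaks. Snoo, the gene of a Ski and Sno family corepressor, held 15 (17 in replicate 1 and 13 in replicate 2), the strongest with a signal of 1264. Tlk, the gene of a Tousled-like kinase, CG43658 and shn, which encodes a zinc finger factor of BMP signalling, held 11 each. The cell cycle factor gene E2f1, the ecdysone-induced nuclear receptor gene Eip75B, the adhesion gene Fas3, the Myc antagonist gene Mnt, the tyrosine phosphatase gene Ptp61F and the transcriptional coregulator gene tara held 10 each. The replicates gave between 8 and 12 in these 6 genes, except 7 for Fas3 in replicate 2. Of the summits of Ptp61F, 4 were also in first introns of ru, a gene that lies within it. The genes differ widely in length, and per 10 kb Mnt (7.01 summits) and E2f1 (4.38) were denser than CG43658 (1.61).

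**Figure D4:**
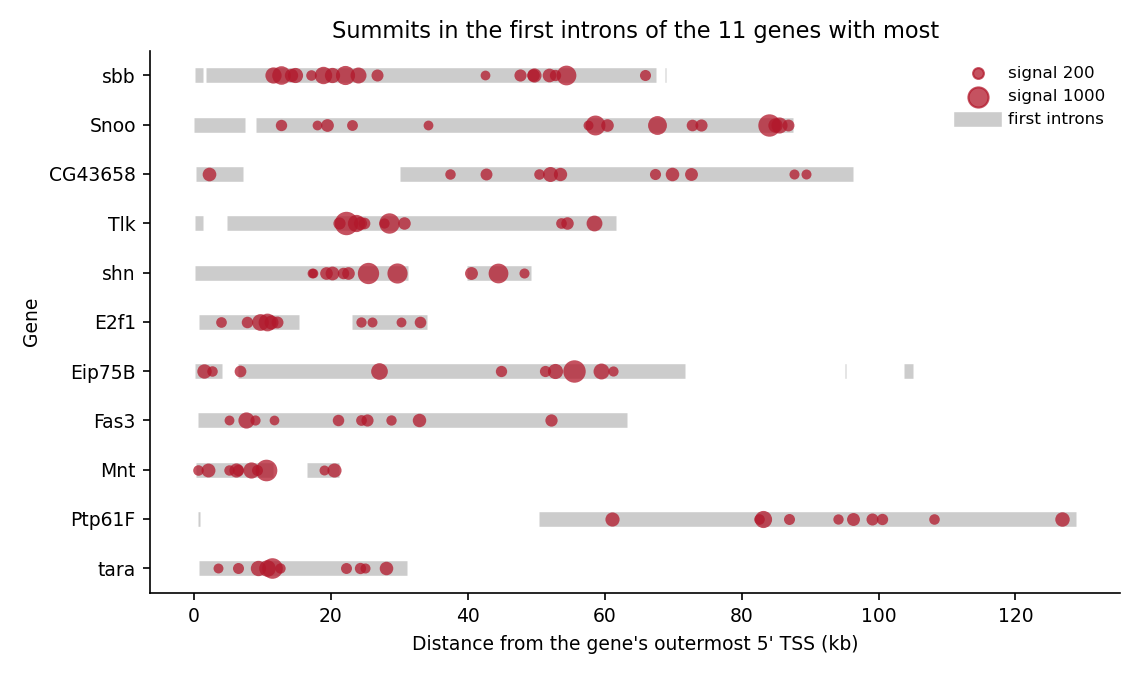
First introns, drawn whole (grey bars), and joint summits (red circles, area growing with deposited signal) of the 11 genes with 10 or more first-intron summits, by distance in kb from the gene's outermost 5′ TSS. Summits stand in groups in several genes, such as E2f1 and Tlk, and sbb at the top holds 18.

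The densest genes with at least 5 summits were shorter. Diap1, which encodes the inhibitor of apoptosis that holds caspases in check, held 5 in 5.96 kb, 8.39 per 10 kb, and each library taken singly also gave 5. The signals of these ran from 183 to 1024. babos held 5 at 7.42 per 10 kb, CG14441 6 at 7.29, and ckn, the caskin gene, 5 at 6.56. Summits were often close together: 728 of the 1751 lay within 2000 bp of another, and merging these left 1333 groups. Such merging took the density of first introns from 7.87 to 5.99 per 100 kb. In later introns it went from 3.14 to 2.37 and in intergenic sequence from 3.19 to 2.43, so closeness was not particular to first introns.

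Genes with a first-intron summit also carried promoter summits more often than other genes did. A joint summit lay within 500 bp of a TSS in 389 of the 861 genes (45.2%), against 1034 of the 5080 eligible genes with none in the first intron (20.4%). In replicate 1 the shares were 46.6% and 21.2%, and in replicate 2 43.1% and 19.6%. The order was the same in each of 6 classes of eligible length, from 38.9% against 20.3% in genes with up to 1 kb to 51.6% against 9.47% in those with over 20 kb. No test was made on these shares, and the number of TSS per gene was not taken into account.

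Gene groups are given by counts and by summits per 100 kb of their eligible first introns, where all protein-coding genes together held 7.88 and 14.5% of genes held a summit. The BMP pathway, which patterns the wing and other tissues through Dpp, had 8 of 9 genes with a first-intron summit and 33 summits, 26.8 per 100 kb (22.8 in replicate 1 and 26.0 in replicate 2). Its ligand gene dpp held 4 and the antagonist gene sog 4. The receptor genes tkv, wit and put held 7, 2 and 1, the transducer gene Mad 3, the inhibitor gene Dad 1 and the nuclear factor gene shn 11. Med, the co-Smad gene, had 0.234 kb of eligible first intron and no summit. In the EGFR and Ras pathway 10 of 16 genes held 25 summits, 21.4 per 100 kb. The receptor gene Egfr and aop, which encodes the repressor Yan, held 6 each, the secreted inhibitor gene aos and the ETS activator gene pnt 3 each, and the ligand genes vn and spi 2 and 1. Median eligible first intron was 8.86 kb in the BMP list, 3.95 kb in the EGFR and Ras list and 0.584 kb over all eligible genes. Of all genes with 5 to 10 kb, 37.1% held a summit, and of those with 2 to 5 kb, 22.2%.

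The Hippo pathway, which restrains growth, had 5 of 12 genes with a summit, 12 in all at 21.0 per 100 kb, with 7 in kibra and 2 in the kinase gene wts. In insulin and TOR signalling 5 of 12 genes held 10 summits (28.7 per 100 kb). The receptor gene InR held 5, foxo 2, and Akt, S6k and Lk6 1 each. In the Wnt pathway 7 of 16 genes held 23 summits (14.8 per 100 kb), 5 each in the receptor gene fz2 and the feedback inhibitor gene nkd, while of the ligand genes Wnt2 held 2 and wg, Wnt4, Wnt6 and Wnt10 none. In Notch signalling 7 of 12 genes held 8 summits (12.6), of which the one in the ubiquitin ligase gene neur had a signal of 1696. In the Hedgehog pathway 3 of 9 genes held 14 (11.9): 6 in dlp, 4 in dally, both glypican genes, and 4 in the receptor gene ptc. The intervals of the Notch and Hedgehog lists include the 7.88 of all genes, so a higher density was not detectable there.

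The ecdysone cascade had 13 of 16 genes with a first-intron summit. It has long first introns, 342 kb in all, so that its 37 summits came to 10.8 per 100 kb. The interval, 7.62 to 14.9, includes the 7.88 of all genes, so a higher density was not detectable. Eip75B held 10, Hr4 4 and the nuclear receptor genes Eip78C and Hr3, the repressor gene Blimp-1 and the kinase gene Eip63E 3 each. CG12912, a gene that lies within Hr3, also held 3, with the same strongest signal (166). The receptor gene EcR held 2 in the joint list, with 0 in replicate 1 and 5 in replicate 2 taken singly, so its count rests on 1 library. The ETS factor gene Eip74EF held 2, as did ftz-f1. The early gene br, with 41.7 kb, held none in the joint list or in either library.

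Cell cycle and Myc network genes held 44.2 summits per 100 kb (interval 28.0 to 66.4; 36.5 in replicate 1 and 44.2 in replicate 2). This rested on few genes: 4 of 16 held a summit, and 20 of the 23 summits were in E2f1 and Mnt, with 2 in the cyclin gene CycE and 1 in the Cdc25 phosphatase gene stg. Polycomb, trithorax and Brahma genes held 42.3 per 100 kb (22.5 to 72.3; 39.0 in replicate 1), so that the order of these 2 lists changed with the library. They too rested on few genes, 5 of 21. The methyltransferase gene trx held 6, the chromatin remodeller gene kis 3 and ph-p, a Polycomb gene, 2. Neural precursor genes held 10 summits in 3 of 8 genes (26.5 per 100 kb), 8 of them in brat, a growth inhibitor gene. The cell death list held 18.9 per 100 kb, all of it from Diap1, and the cell death gene hid held none of the joint summits in its 11.2 kb. Autophagy genes held 3 summits in 2 of 10 genes (22.4). The circadian list held 10 (11.04), of which 6 were in vri, and the muscle list 9 (12.8), 4 each in Mef2 and mbc. For the cell death, autophagy, circadian and muscle lists the intervals include the 7.88 of all genes. Their lower bounds were 6.14, 4.62, 5.30 and 5.86 in that order, so a higher density was not detectable.

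Homeobox genes, the class of CG34367 itself, lay below all genes in density, with 35 summits in 15 of 75 genes and 5.52 per 100 kb (interval 3.84 to 7.68). All genes with over 20 kb of eligible first intron held 6.68 per 100 kb, inside this interval. The homeobox list has 12 such genes, and the lists were not compared at like intron length. Antp held 6 in 73.1 kb and NK7.1 5 in 21.8 kb, while Ubx held 1 in 72.4 kb. CG34367 had 3.20 kb of eligible first intron and held 0 summits there, in the joint list and in each library, and none in its promoter or elsewhere in its body. Axon guidance genes held 6.30 per 100 kb (13 of 34 genes), with 10 of 34 summits in Fas3. Appendage patterning genes held 5.51, cuticle protein genes 5.76 from 1 summit, planar cell polarity and cell recognition genes 3.17, glial genes 2.96 from 1 summit, and ion channel and synapse genes 2.78. In each library taken singly ion channel and synapse genes held 1.67, while in replicate 2 glial genes held 5.92 and cuticle protein genes 11.5. For the axon guidance, appendage patterning, cuticle protein and glial lists and for planar cell polarity and cell recognition the intervals of the joint values include the 7.88 of all genes (upper bounds 8.80, 11.3, 32.1, 16.5 and 8.13), so a lower density was not detectable.

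The dpr and DIP genes, which encode immunoglobulin-domain surface proteins that pair neurons with their partners, held no first-intron summit in 30 genes and 309 kb, in the joint list or in either library. A count of 0 allows up to 0.970 per 100 kb (3 counts), below the 7.88 of all genes. Their first introns are not short, with 41.2 kb in DIP-gamma and 41.1 kb in dpr12. Cytoplasmic ribosomal protein genes also held none, but in 15 genes with only 4.39 kb of eligible sequence, where a count of 0 allows up to 68.4 per 100 kb, so a difference from all genes was not detectable.

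**Figure D5:**
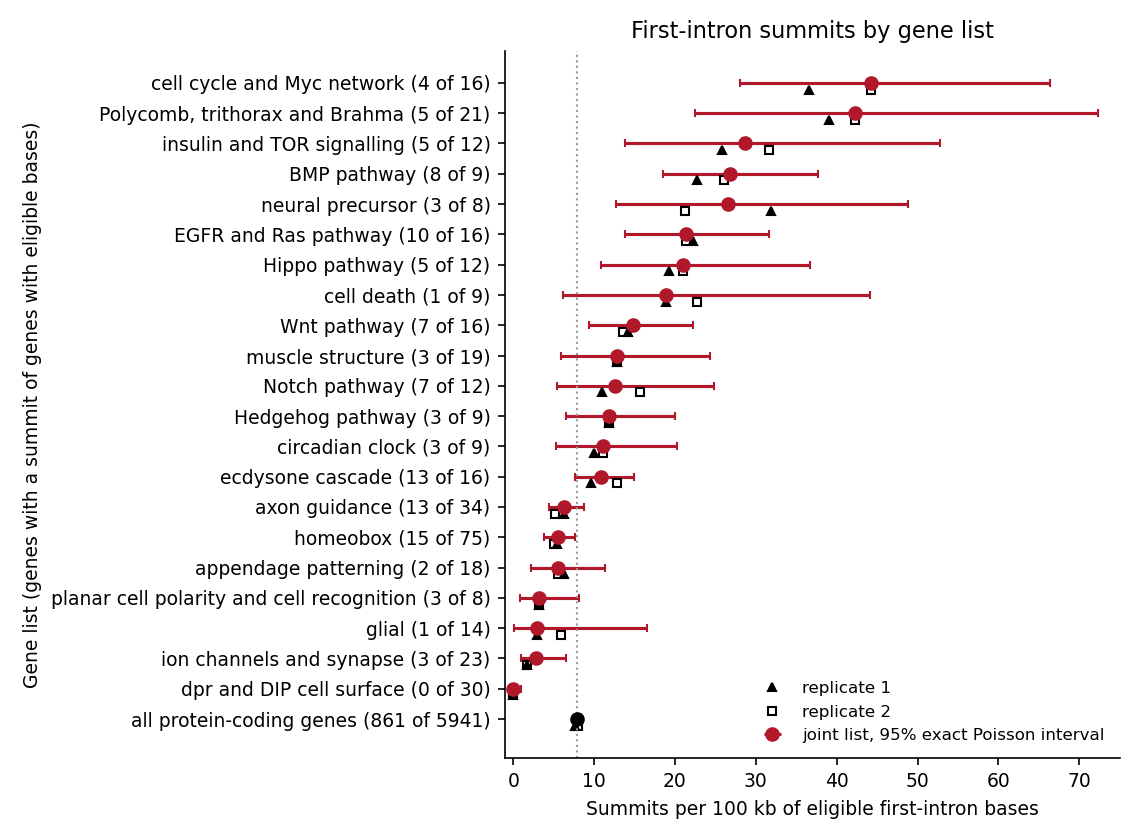
First-intron summits per 100 kb of eligible bases (horizontal axis) for 21 gene lists with at least 20 kb of eligible first intron and, in black at the bottom, all protein-coding genes, whose value of 7.88 is the dotted line. Circles are the joint list with 95% exact Poisson intervals (for dpr and DIP, up to the limit of 3 counts), triangles and squares replicates 1 and 2; lists run from 44.2 (cell cycle and Myc network) to 0 (dpr and DIP).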

How the data were processed

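ChIP-seq for CG34367-GFP was analysed from the peak lists that the authors deposited in narrowPeak format: replicate 1, replicate 2, their pool (30000 peaks each) and the joint list of 6270. Per the deposited text descriptions, 1 control served for calling peaks in the libraries and in their pool on dm6, and the joint list derives from the other 3. Per the labels, chromatin was sonicated to 200 to 800 bp. No peak caller is named in the sources used here. Signal is a score per peak in the deposited lists, with unknown scaling, and was used to rank, filter and describe peaks within a list. The authors' −log10 q-value is capped and the same in all joint peaks, and was not used to rank. Read depth is unknown, so intervals on counts of summits cover counting error only.

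Genes, TSS and introns came from Ensembl release 115 and sequence from the RefSeq Release 6 assembly, both on the same dm6 coordinates (1-based here). Each library taken singly means its 6270 strongest peaks by signal. Overlap was at least 1 bp. Densities were compared with exact conditional binomial tests, shares with Fisher's exact test and summits with their flanks by exact McNemar tests, all two-sided, with Benjamini-Hochberg adjustment over 5 shares, 12 sequences or 2080 sequences of 6 bases and a threshold of 0.05. The statistics were tested on simulated data. The 24 gene lists matched the annotation in full, 4 symbols through older names. The regions, gene lists, sequences and tests were chosen with earlier results of these data known. Named genes were those of the 15 strongest first-intron peaks found in both libraries, the 10 genes with most summits (11 with a tie), the 5 densest with at least 5, the 2 members of each list with the strongest peak, the 3 peaks with the largest ratio in each direction and CG34367. Members of the lists beyond these, and genes that lie within named ones, were named to account for counts, after their values were seen. Alternatives changed the list of peaks, the TSS limit, the definition of a first intron, repeats, windows, flanks and overlap. Analyses ran in Python 3.11.15 with numpy 2.4.6, scipy 1.17.1 and matplotlib 3.10.9.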

Additional observations from a re-analysis of the deposited data

How the results depend on the processing

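Of 80 alternatives, 60 left the direction and the call of a result as they were. The density ratios kept direction and call under all of theirs: 2.29 to 2.79 for first to later introns, except 1.80 within stretches of overlapping genes, and 2.22 to 2.92 for first introns to intergenic sequence. Without either replicate the ratio to later introns ran from 2.44 to 2.57 and that to intergenic sequence from 2.30 to 2.56. In the stronger 3135 joint peaks, the odds ratios against later introns turned for the repeat-masked share (1.07, adjusted exact p = 0.80) and for the share in both libraries (0.88, adjusted exact p = 0.84), neither called before or after, and the X share lost its call (0.83), as it did with a TSS limit of 1000 bp (0.79). That set has fewer peaks. The share among the 1567 strongest peaks passed without replicate 1 (odds ratio 1.28) and not without replicate 2 (1.18). The TAATTA ratio to flanks ran from 1.31 to 1.69 and passed, without either replicate included (1.35 to 1.69), except in pairs of like GC content, where it was 1.19. The number of sequences of 6 bases called was 0 under each of 5 alternatives, those without a replicate included. Genes with a first-intron summit made up 9.21% in the stronger 3135 peaks and 12.9% where the intron had to be first in every transcript. The cause of these changes was not tested. No paired analysis was possible because the series has 1 group. The unknown depth and the 2 libraries limit what can be said of single peaks.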
